A study of Mus musculus with 9 samples.

Results

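The podocyte genes described here are 9 genes of the glomerular filter: Nphs1, Cd2ap, Podxl, Ptpro, Synpo, Clic5, Plce1, Wt1 and Cdkn1c. They were found on the array by matching the accession of each non-control probe to its gene through RefSeq, which gave 16 probes for the 9 genes among 32301 distinct genes and unmatched accessions. All 9 genes had a probe that passed the filter on dim spots, as did 17742 genes in all, and 13 of the 16 probes passed it. The genes were taken as a group by their names, with earlier results of these data known.

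The study used 9 male mice aged 10 weeks and hybridised RNA from the entire left kidney of each to 1 array. All 9 carried the same genotype, ISAM (Epo-/-::3.3K-Epo3'-Tg458), on a mixed strain background: erythropoietin is deleted and a transgene gives it back in part, so that the mice are anaemic, the controls included. In clip kidneys (3 mice) a vascular clip had closed the left ureter for 2 days. In release kidneys (3 mice, labelled ClipR-14) the clip had been taken off 12 days before collection. The control kidneys were 2 sham-treated and 1 untreated, and when they were collected is not given. No kidney of a wild-type mouse was part of the comparison.

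Podocytes are the epithelial cells that wrap the capillaries of the glomerulus. Their interlocking foot processes are joined by the slit diaphragm, a specialised junction that holds back protein, and each process is shaped by a core of actin filaments and coated by a negatively charged surface protein. Ureteral obstruction is a classical injury of the tubules and the interstitium, and podocytes make up a small part of the cells of a whole kidney. In whole-kidney RNA, fewer podocytes and less RNA per podocyte cannot be told apart. Several of the 9 genes, Cd2ap and Clic5 among them, are also known from other cell types.

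The promoters of the 3 members with the largest changes among those measured on every array are shown because these genes moved in different directions. Each run holds the 250 bases before the annotated start, 5′ to 3′ on the strand of the gene, from RefSeq on GRCm38.p6. Nphs1 lies on the plus strand (chr7:30459808-30460057), Cd2ap on the minus strand (chr17:42876425-42876674) and Clic5 on the plus strand (chr17:44188322-44188571). Capitals mark matches to GNGTGGGNG on either strand, a short GC-rich motif of the kind bound by the zinc fingers of WT1.
Nphs1: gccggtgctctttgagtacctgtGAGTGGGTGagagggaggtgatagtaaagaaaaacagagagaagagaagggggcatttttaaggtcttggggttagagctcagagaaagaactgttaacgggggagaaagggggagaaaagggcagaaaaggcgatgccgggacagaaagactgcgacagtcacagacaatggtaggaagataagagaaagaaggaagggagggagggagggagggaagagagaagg
Cd2ap: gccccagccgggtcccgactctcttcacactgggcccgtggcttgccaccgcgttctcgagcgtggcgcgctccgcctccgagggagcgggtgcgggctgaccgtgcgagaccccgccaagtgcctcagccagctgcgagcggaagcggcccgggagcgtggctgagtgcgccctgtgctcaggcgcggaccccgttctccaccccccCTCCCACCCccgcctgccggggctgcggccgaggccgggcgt
Clic5: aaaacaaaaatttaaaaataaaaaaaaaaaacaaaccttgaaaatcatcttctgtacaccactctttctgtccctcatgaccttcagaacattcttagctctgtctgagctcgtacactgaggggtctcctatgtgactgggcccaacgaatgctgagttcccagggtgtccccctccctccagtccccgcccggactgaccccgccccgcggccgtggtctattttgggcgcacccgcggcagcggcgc
The motif begins 227 bases before the start in Nphs1, on the strand of the gene, and 42 bases before it in Cd2ap, on the opposite strand. Clic5 has no match in these letters, nor do Ptpro and Plce1. The motif was thus found in 2 of the 5 member promoters that were searched, and in 12.7% of the 32851 promoters of the RefSeq promoter table. The promoter of Synpo was left out of the member search and is not reported here. Nphs1 fell and Cd2ap rose in clip kidneys, so the genes with a match moved in opposite directions. A match is a run of letters and not a measured binding site.

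Levels are given as log2 of the processed intensity over the 75th percentile of the same array, so that a level of 0 is that percentile. Levels of different probes are not set against each other. The summed levels of cell type markers add the scaled intensities of different genes, so the brightest genes weigh most. Changes are differences of mean log2 levels with their standard error from limma, and adjusted p is the Benjamini-Hochberg value over all 17742 genes, with 0.05 as the threshold. Each arm has n = 3. That is few arrays, and their number limits the precision. Podocyte transcripts were measured in all arms: of the marker genes Nphs1, Podxl, Wt1, Synpo and Ptpro, each was well above background on all 9 arrays.

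In clip kidneys the 9 genes did not move as a group. Of the 8 that were well above background on every array, Clic5, Nphs1, Cdkn1c and Podxl fell, Cd2ap rose, and Wt1, Synpo and Ptpro did not pass the test. The falls ranged from 2.24-fold for Clic5 to 1.41-fold for Podxl, and the rise of Cd2ap was 1.78-fold. Plce1, the ninth gene, was above background in clip kidneys alone. This obstruction changed many transcripts: 48.9% of all tested genes were called in the same comparison, 21.4% higher and 27.5% lower, so 5 called of 8 is not far from the share of all genes. The clip and control kidneys did not overlap for 5 of the 8, against 58.6% of all genes. The median change of the 8 genes was -0.38, against -0.09 over all genes tested. By the 12th day after release no member was called against control, with 1.83% of all genes called there.

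**Figure D1:**
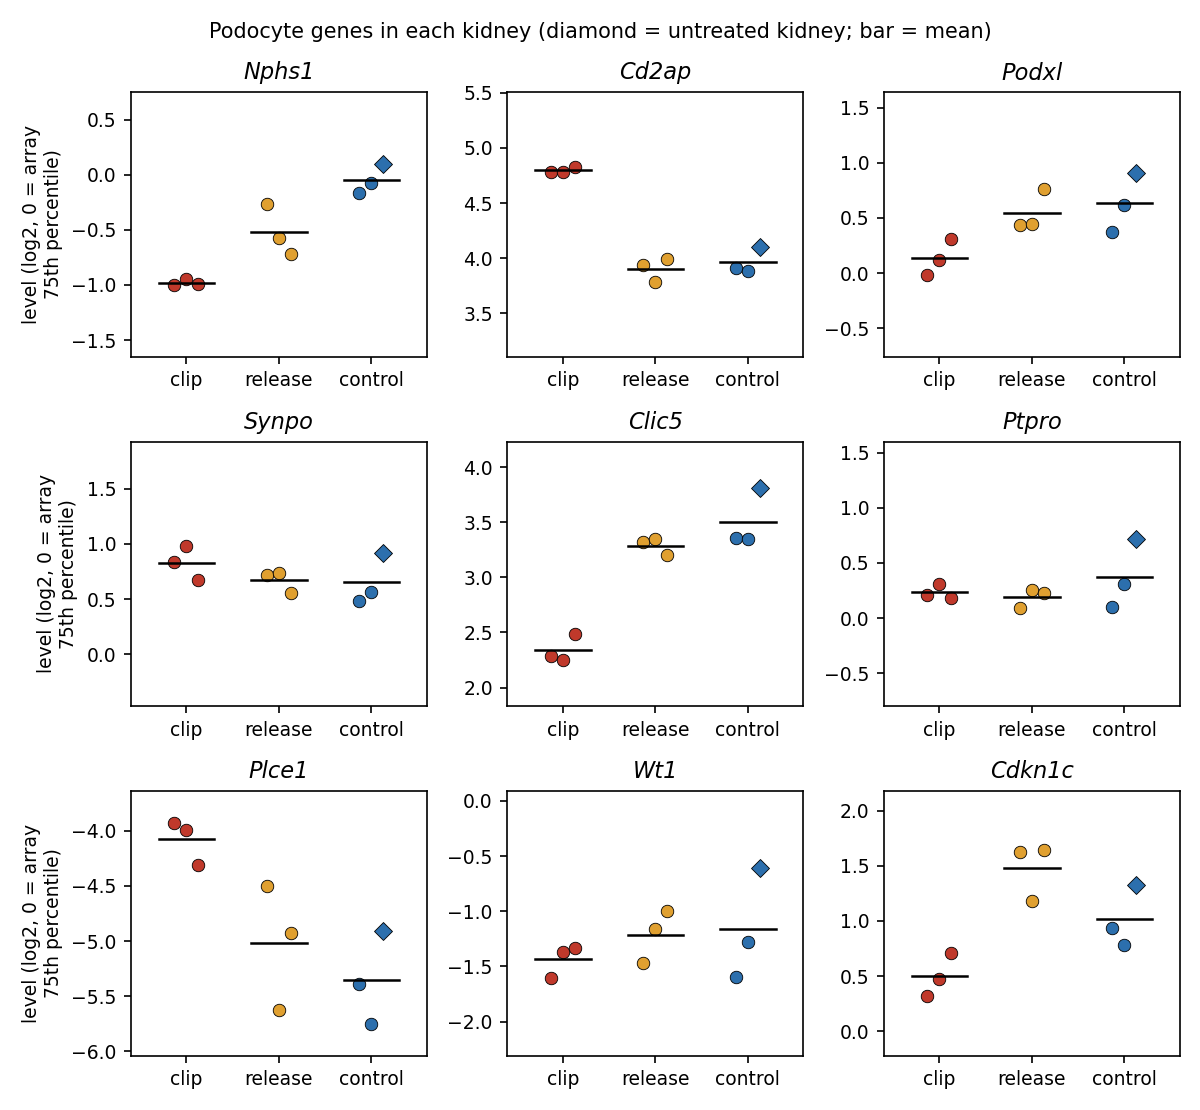
Log2 level (processed intensity over the array's 75th percentile) of the main probe of each of the 9 genes, 1 panel per gene, with 1 point per kidney in clip, release and control and a bar at the arm mean. Clip points lie below every control point for Nphs1, Podxl, Cdkn1c and Clic5 and above every one for Cd2ap and Plce1, and the untreated kidney is the highest control point in all 9 panels.

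Nphs1 encodes nephrin, the adhesion molecule that spans the slit diaphragm. Its log2 levels were -1.0, -0.95 and -0.99 in clip kidneys 1 to 3, -0.27, -0.58 and -0.72 in release kidneys 1 to 3, -0.17 and -0.07 in the sham kidneys and 0.10 in the untreated kidney. The 3 arms do not overlap: every clip kidney was below every release kidney, and every release kidney below every control. The clip kidneys lay close together, with a mean of -0.98 ± 0.027, against -0.05 ± 0.14 in control kidneys (SD, n = 3 each). Nphs1 fell by 0.93 ± 0.13 on the log2 scale, which is 1.91-fold (limma, adjusted p = 0.00049). The differences within each of the 3 array slides, which each carried 1 kidney of every arm, were -0.83, -0.87 and -1.09.

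Cd2ap encodes an adaptor that links nephrin to actin and to endocytosis. On its brightest probe the log2 levels were 4.78, 4.78 and 4.83 in clip kidneys, 3.94, 3.78 and 3.99 in release kidneys, 3.91 and 3.89 in sham kidneys and 4.10 in the untreated kidney. Clip kidneys stood apart above all the others, and release and control kidneys overlapped. The change in clip kidneys was 0.83 ± 0.10 (1.78-fold, adjusted p = 0.00019). The second Cd2ap probe, fitted with every kept probe, had a change of 1.04 ± 0.27 (adjusted p = 0.012, with 46.9% of all kept probes called). Both probes therefore rose, and they did so on the same RNA in which nephrin fell.

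Podxl encodes podocalyxin, the sialic acid-rich protein that coats the foot processes and also the surface of endothelial cells. Its brightest probe had log2 levels of -0.02, 0.12 and 0.31 in clip kidneys, 0.43, 0.45 and 0.76 in release kidneys, 0.37 and 0.62 in sham kidneys and 0.90 in the untreated kidney. The highest clip kidney was just below the lowest control. Podxl fell by 0.50 ± 0.16 (1.41-fold, adjusted p = 0.033). Without the untreated kidney the difference was -0.36 with an adjusted p of 0.093, so the call rests in part on that array; leaving out sham 2, clip 1 or clip 2 also ended it, with adjusted p values of 0.072, 0.108 and 0.084. In all it was lost in 8 of 19 alternatives, with normexp (0.051), quantile normalization (0.055) and no filter on dim probes (0.069) among them. The second Podxl probe differed by -0.24 ± 0.14 and was not called (adjusted p = 0.18).

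Ptpro encodes a receptor tyrosine phosphatase of the podocyte surface, also called GLEPP1. Its log2 levels were 0.21, 0.31 and 0.18 in clip kidneys, 0.09, 0.25 and 0.23 in release kidneys, 0.10 and 0.31 in sham kidneys and 0.72 in the untreated kidney. The arms overlap, and only the untreated kidney stood away from the other 8. The difference of clip from control was -0.14 ± 0.15 (adjusted p = 0.47), with a 95% interval of -0.48 to 0.20, and it turned to 0.03 without the untreated kidney. A second probe was above background on 2 of the 9 arrays and was not tested.

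Synpo encodes synaptopodin, an actin-bundling protein of the foot processes. Its brightest probe read 0.84, 0.98 and 0.67 in clip kidneys, 0.71, 0.73 and 0.56 in release kidneys, 0.48 and 0.57 in sham kidneys and 0.92 in the untreated kidney, as log2 levels. All 3 clip kidneys were above both sham kidneys, and the untreated kidney lay among them. The difference was 0.18 ± 0.14 (adjusted p = 0.33, 95% interval -0.14 to 0.49). Within slides it was 0.36, 0.41 and -0.25, the last on the slide of the untreated kidney. On slides 1 and 2 alone, a subset chosen after the data were seen, it was 0.39 with an adjusted p of 0.027. The second Synpo probe differed by -0.15 ± 0.22 (adjusted p = 0.60), the opposite sign, and the third was above background on no array.

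Clic5 encodes a chloride intracellular channel protein that anchors the ezrin and podocalyxin complex to actin in foot processes, and it is also abundant in glomerular endothelium. Log2 levels of its brightest probe were 2.28, 2.25 and 2.49 in clip kidneys, 3.32, 3.35 and 3.20 in release kidneys, 3.36 and 3.34 in sham kidneys and 3.81 in the untreated kidney. Clip kidneys were lower than every other kidney by a wide margin, while release and sham kidneys lay side by side on this probe. Clic5 fell by 1.16 ± 0.14 (2.24-fold, adjusted p = 0.00023), the largest fall among the members. The second Clic5 probe gave -0.86 ± 0.15 (adjusted p = 0.0018), with levels of -0.71, -0.76 and -0.34 in clip kidneys, 0.01, -0.12 and 0.04 in release kidneys, 0.15 and 0.10 in sham kidneys and 0.52 in the untreated kidney. On that probe every release kidney lay below both sham kidneys.

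Cd2ap and Clic5 lie on the same chromosome, 17, with 12 protein-coding genes between them in RefSeq. Of the 9 of these that were tested, 1 rose and 5 fell in clip kidneys, against 21.4% and 27.5% of all genes. Neighbourhood is given here as position alone.

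**Figure D2:**
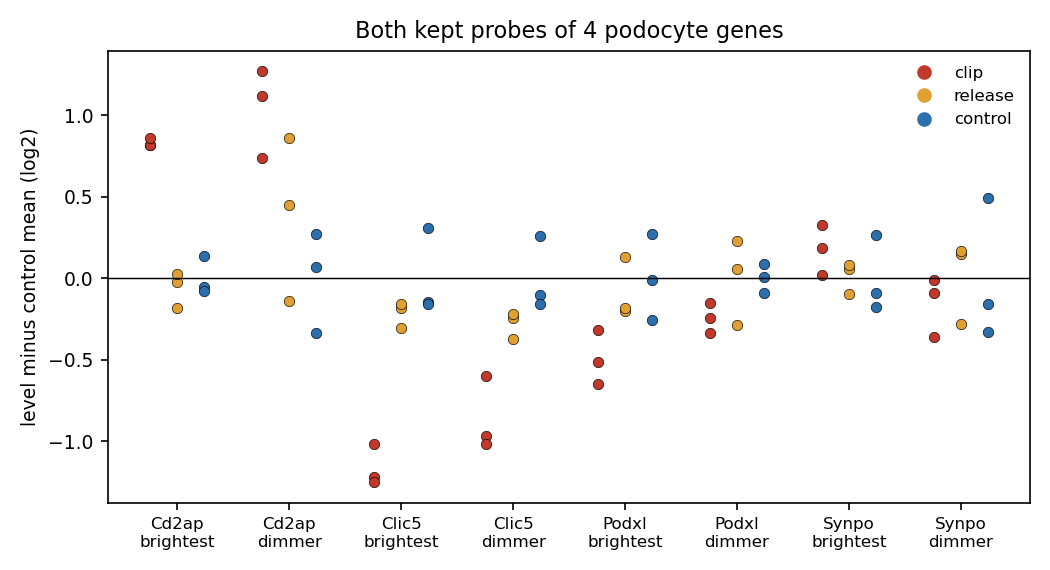
Log2 level minus the probe's control mean (y axis) for both kept probes of Cd2ap, Clic5, Podxl and Synpo, with 1 point per kidney in clip, release and control. The clip points of Cd2ap are above 0 and those of Clic5 below it on both probes, while for Synpo they lie above 0 on the brightest probe and below it on the dimmer one.

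Plce1 encodes phospholipase C epsilon, a signalling enzyme of the podocyte whose loss in humans causes nephrotic syndrome. Its log2 levels were -3.93, -4.00 and -4.31 in clip kidneys, -4.50, -5.62 and -4.92 in release kidneys, -5.39 and -5.75 in sham kidneys and -4.91 in the untreated kidney. This probe was well above background on the 3 clip arrays and on no other, so the control and release values are bounds. A second Plce1 probe was above background on 0 of the 9 arrays, clip arrays included, and was not tested. Plce1 was at least 1.15-fold higher in clip than in control kidneys, with measured means of -4.08 and -5.35 and a fitted adjusted p of 0.0080, which was 0.084 with normexp background correction. For the bound, each control array was set to its detection level, unless the gene's own signal was higher. That level is the dimmest signal still called well above background there. The bound compares arm means, not single kidneys. Detection levels differed between arrays: clip 3 lay below those of sham 1 (-4.25) and sham 2 (-4.23). All 3 clip kidneys lay below those of release 1 (-3.90) and release 2 (-3.85). The gene passed the filter through the clip arm alone, which selects for a higher level there, so it is left out of the counts of the 8.

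Wt1 encodes the zinc finger transcription factor that podocytes keep expressing in adult life. One probe in 10 spots gave log2 levels of -1.61, -1.37 and -1.33 in clip kidneys, -1.47, -1.16 and -1.0 in release kidneys, -1.59 and -1.28 in sham kidneys and -0.61 in the untreated kidney. The sham kidneys lay within the range of the clip kidneys or just above it, and the untreated kidney stood apart. The SD over the 10 spots of an array was 0.030 to 0.14, smaller than the spread between control kidneys of 0.50. The difference of clip from control was -0.27 ± 0.24 (adjusted p = 0.38, 95% interval -0.82 to 0.28), and without the untreated kidney it was 0.0017. The interval thus spans falls larger than that of Podxl as well as small rises.

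Cdkn1c encodes p57, a cyclin-dependent kinase inhibitor that marks podocytes after they leave the cell cycle. It had log2 levels of 0.32, 0.47 and 0.71 in clip kidneys, 1.63, 1.18 and 1.64 in release kidneys, 0.94 and 0.78 in sham kidneys and 1.32 in the untreated kidney. Every clip kidney was below every control, and 2 of the 3 release kidneys were above every control. Cdkn1c fell by 0.52 ± 0.19 in clip kidneys (1.43-fold, adjusted p = 0.047). That call stood just under the threshold and was lost in 12 of 19 alternative analyses, over which the adjusted p ran from 0.013 to 0.14. Without the untreated kidney the difference was -0.36 with an adjusted p of 0.13, and leaving out sham 1, clip 1, clip 2, release 1 or release 3 gave adjusted p values of 0.075, 0.14, 0.11, 0.0583 and 0.0561.

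The untreated kidney was the highest of the 3 controls in 9 of the 9 genes, and in 38.4% of all genes tested. Its excess over the sham mean ran from 0.21 for Cd2ap and 0.22 for Nphs1 to 0.66 for Plce1 and 0.83 for Wt1 on the log2 scale. It was also the only control on slide 3, which was scanned on another date, and clip 3 and release 3 on the same slide were the highest of their arms in 5 and 4 of the 9 genes, against 37.1% and 34% of all genes. Treatment, slide and animal cannot be told apart for this array. With the sham kidneys alone as the control, the clip differences were -0.86 for Nphs1 (adjusted p = 0.0019), 0.90 for Cd2ap (adjusted p = 0.00030) and -1.01 for Clic5 (adjusted p = 0.00029).

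At 12 days after the clip was removed, no member was called against control in the limma fit, and at an unadjusted p under 0.05 there were 2 of 9, Nphs1 and Cdkn1c, while 21.5% of all genes passed that unadjusted level. Their differences had opposite signs. Nphs1 was -0.47 ± 0.13 in release against control kidneys, with an unadjusted p of 0.0060 and an adjusted p of 0.094. Its 95% interval of -0.77 to -0.18 leaves out 0, although the adjusted value misses the threshold, and the within-slide differences were -0.10, -0.50 and -0.82. On the brightest probes it was the only member whose release and control kidneys did not overlap, and 27.2% of all genes had no overlap. On the second Clic5 probe those kidneys did not overlap either, with a difference of -0.28 ± 0.15 (adjusted p = 0.34). Cdkn1c was 0.47 ± 0.19 (unadjusted p = 0.035, adjusted p = 0.20), and its arms overlapped. The other 7 differences lay between -0.22 for Clic5 and 0.34 for Plce1, where the Plce1 value comes from arrays on which its probe was not well above background. Their intervals were wide: that of Clic5 ran from -0.54 to 0.11 and that of Cd2ap from -0.28 to 0.16. The second Cd2ap probe differed by 0.39 ± 0.27 in release against control kidneys, the opposite sign to its brightest probe. That difference was not called (adjusted p = 0.44, limma on every kept probe), and its arms overlapped.

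Between release and clip kidneys, the 8 genes measured on every array split again. Cdkn1c, Clic5 and Nphs1 rose, Cd2ap fell, and Podxl, Wt1, Synpo and Ptpro were not called. In this comparison 41% of all genes were called, 23.5% higher and 17.4% lower. The arms did not overlap for 5 of the 8, and for 54.8% of all genes. Cdkn1c was higher by 0.99 ± 0.19 in release kidneys (1.98-fold, adjusted p = 0.0033), with within-slide differences of 1.31, 0.71 and 0.93. Clic5 was higher by 0.95 ± 0.14 (1.93-fold, adjusted p = 0.0010). Cd2ap was -0.89 ± 0.10 (1.85-fold lower in release kidneys, adjusted p = 0.00019) on its brightest probe. The second Cd2ap probe differed by -0.65 ± 0.27, was not called (adjusted p = 0.086), and its arms overlapped. On their brightest probes these 3 genes differed between release and clip kidneys on every slide, in the same direction.

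Nphs1 was higher by 0.46 ± 0.13 in release than in clip kidneys (adjusted p = 0.022), on every slide but by different amounts, 0.73, 0.37 and 0.27. Leaving out release 1, the highest release kidney, gave 0.33 with an adjusted p of 0.059, and leaving out clip 1, clip 2 or clip 3 gave adjusted p values of 0.063, 0.053 and 0.055. With normexp background correction the difference was 0.13 with an adjusted p of 0.52. Podxl was higher by 0.41 ± 0.16 but not called (adjusted p = 0.075). Its difference was called in 4 of 19 alternatives, among them slide as a block (adjusted p = 0.0054) and the mean of its probes (adjusted p = 0.018). Plce1 was called lower in release kidneys (adjusted p = 0.037), but its probe was not well above background on any release array and no fold is given; leaving out sham 1, clip 1, clip 2, clip 3, release 2 or release 3 gave adjusted p values of 0.050 to 0.103. Wt1 differed by 0.22 ± 0.24, Synpo by -0.16 ± 0.14 and Ptpro by -0.05 ± 0.15. The comparisons with control share the control kidneys, and this one shares its kidneys with both, so the 3 sets of values are not independent of each other.

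**Figure D3:**
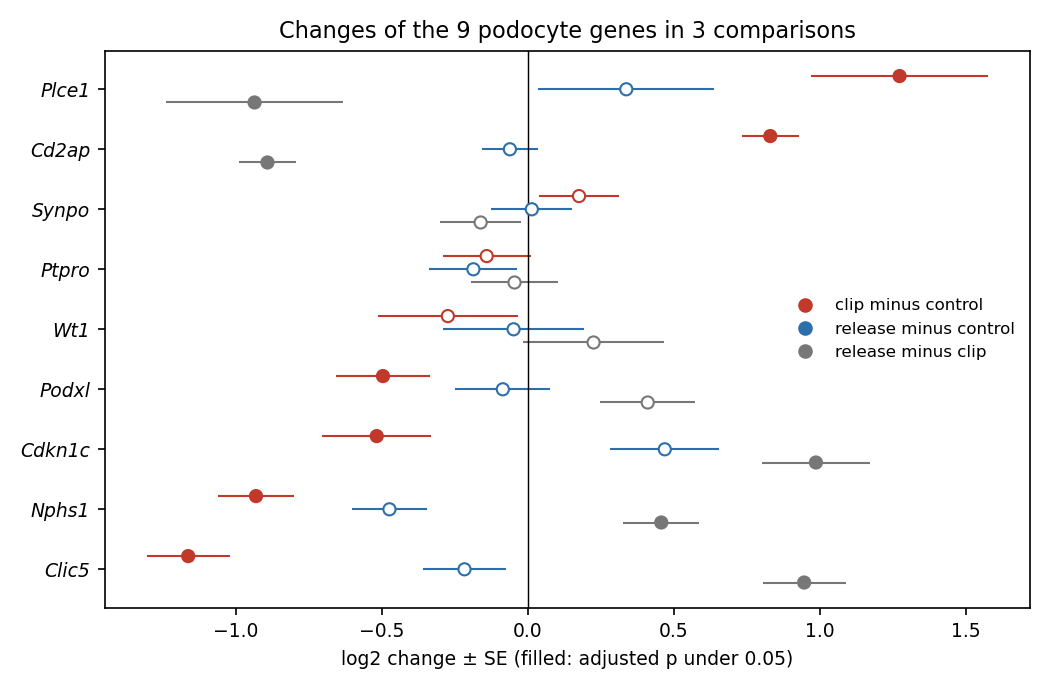
Log2 change of each member in clip against control, release against control and release against clip kidneys, as points with bars of 1 standard error from the limma fit, filled where the adjusted p is under 0.05. No release against control point is filled, and Nphs1 (-0.47) and Cdkn1c (0.47) lie farthest from 0 there. Plce1 is drawn at its fitted change, although its control and release levels are not well above background.

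The other genes of the podocyte came from 5 lists with 57 genes in all: slit diaphragm and adaptors, foot process actin, transcription factors, the glomerular basement membrane with its receptors, and other podocyte-enriched genes. Of these, 48 were tested. Kirrel2, Kirrel3, Trpc6, Foxd2, Col4a5 and Robo2 were on the array but too dim, and Fyn, Lamc1 and Sema3g were not matched to a probe. Anln passed the filter through the clip arm alone. Of the other 47, 17 rose, 12 fell and 18 were not called in clip kidneys, with a median change of 0.22. Over all genes tested, 21.4% were called higher and 27.5% lower, and these shares belong beside the clip counts of every list below. As for the members, rises and falls stood side by side, and many of the genes on these lists are also expressed by tubule, vessel or inflammatory cells. In release kidneys none of the 48 was called against control (median 0.04), where 1.83% of all genes were called.

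Among slit diaphragm genes, 4 of 10 rose and 3 fell in clip kidneys. Crb2, a polarity protein of the slit, fell by 0.62 ± 0.20 (adjusted p = 0.033), a call lost in 9 of 19 alternatives. Fat1, a giant cadherin, rose 2.14-fold (1.09 ± 0.11, adjusted p = 8.3e-05), and Kirrel, which encodes the nephrin relative Neph1, rose 1.75-fold (0.81 ± 0.18, adjusted p = 0.0062).

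Foot process actin genes gave 4 rises and 2 falls among the 10 that did not pass the filter through the clip arm alone, with a median change of -0.03. Myh9, non-muscle myosin heavy chain, rose 2.25-fold (1.17 ± 0.15, adjusted p = 0.00030). Anln, the actin-binding protein anillin, was above background in clip kidneys alone. The filter thus selected it for a higher level there, and it is left out of the counts. Its level was at least 1.51-fold higher in clip than in control kidneys (measured means -3.68 and -6.22, adjusted p = 0.0027). Rhpn1, a scaffold protein of foot processes, fell 1.90-fold (-0.93 ± 0.12, adjusted p = 0.00035), and Arhgap24, a Rac-inactivating protein, fell 1.80-fold (-0.84 ± 0.14, adjusted p = 0.0013).

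Of the 5 tested transcription factors, none rose and 2 fell in clip kidneys. Foxc2, a forkhead factor of the developing glomerulus, fell by 0.52 ± 0.16 (1.43-fold, adjusted p = 0.026), a call lost in 6 of 19 alternatives. Tcf21, named after its values were seen, differed by 1.01 ± 0.24 in release against control kidneys (adjusted p = 0.066) and was called there with slide as a block (adjusted p = 0.034) or with the replicate block (adjusted p = 0.049).

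The basement membrane list had 6 rises and 2 falls among 13 genes, with a median change of 0.39. The falls were the collagen IV chains of the mature glomerular membrane: Col4a3 fell 2.28-fold (-1.19 ± 0.17, adjusted p = 0.00050) and Col4a4 2.14-fold (-1.10 ± 0.13, adjusted p = 0.00024). Col4a3 had levels of -0.50, -0.72 and -0.31 in clip kidneys, 0.58, 0.34 and 0.82 in release kidneys, 0.68 and 0.48 in sham kidneys and 0.87 in the untreated kidney. Its release and control ranges overlap. Itga3, the integrin alpha chain that binds podocytes to laminin, rose 1.97-fold (0.98 ± 0.17, adjusted p = 0.0015), and Agrn, the proteoglycan agrin, rose 1.66-fold (0.73 ± 0.08, adjusted p = 0.00014).

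The other podocyte-enriched genes split 3 up, 3 down and 3 not called. Vegfa, the growth factor that podocytes and tubule cells supply to the capillaries, fell 2.68-fold (-1.42 ± 0.10, adjusted p = 1.4e-05), and Bmp7 fell 2.31-fold (-1.21 ± 0.15, adjusted p = 0.00025). Pdpn, podoplanin, rose 1.74-fold (0.80 ± 0.11, adjusted p = 0.00036). Its probe was dim, well above background on 3 clip arrays but on only 2 control and 2 release arrays. Nes, the intermediate filament nestin, rose 1.5-fold (0.59 ± 0.16, adjusted p = 0.015), a call lost in 5 of 19 alternatives.

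**Figure D4:**
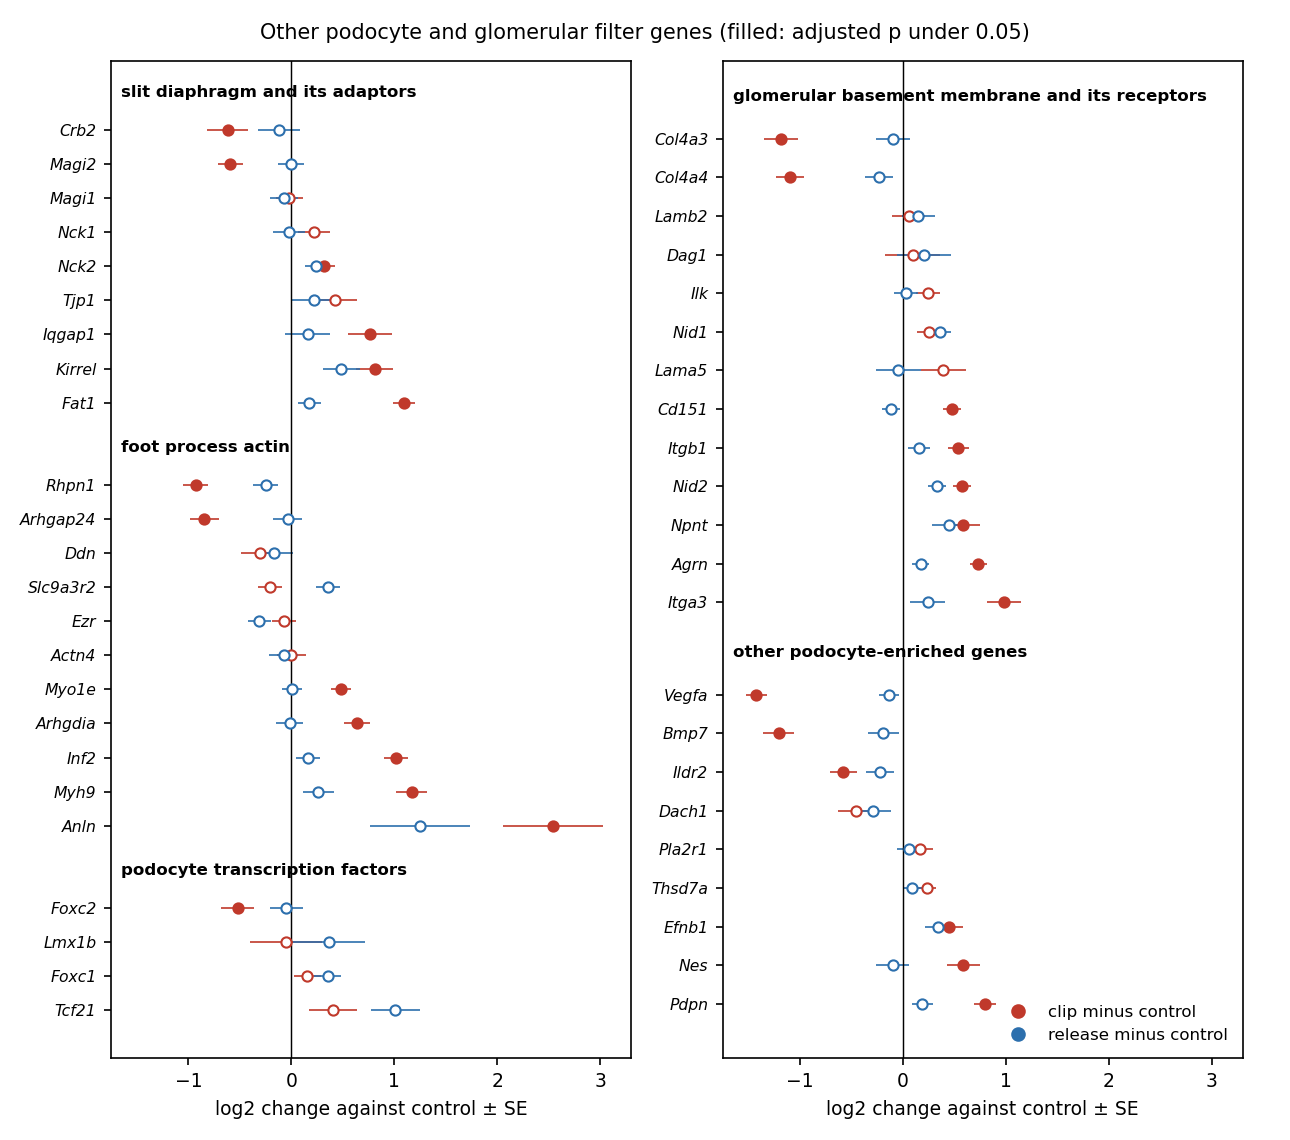
Log2 change of the tested genes of the 5 lists that are reported here, in clip against control and in release against control kidneys, as points with bars of 1 standard error from the limma fit, filled where the adjusted p is under 0.05. Filled clip points lie on both sides of 0 in every list except the transcription factors, and no release point is filled. Anln is drawn at its fitted change, although its release and control levels are not well above background.

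Of 8 tested relatives of the members, 4 rose, 2 fell and 2 were not called in clip kidneys. Clic1 rose 1.86-fold in clip kidneys (0.90 ± 0.15, adjusted p = 0.0013) and Clic3 fell 1.5-fold (-0.58 ± 0.12, adjusted p = 0.0037, but 0.32 with normexp), while Clic4 (-0.03 ± 0.10, adjusted p = 0.79) and Clic6 (-0.27 ± 0.77, adjusted p = 0.80) were not called. Sh3kbp1, the closest relative of Cd2ap, rose 1.63-fold (0.70 ± 0.11, adjusted p = 0.0011), the direction of Cd2ap. Cd34, a sialomucin related to podocalyxin and best known from endothelium, rose 1.57-fold (0.65 ± 0.12, adjusted p = 0.0024), the opposite direction to Podxl. Among the kinase inhibitors, Cdkn1a (p21) rose 2.34-fold (1.23 ± 0.23, adjusted p = 0.0026) and Cdkn1b (p27) fell 1.38-fold (-0.47 ± 0.16, adjusted p = 0.039), a call for Cdkn1b lost in 12 of 19 alternatives. Synpo2, Synpo2l and Podxl2 were not tested. Differences between a member and its relative were not tested themselves.

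Markers of the other cells of the kidney moved in the same arrays, and their part in the members' changes was not tested. Glomerular and other endothelial markers had 2 rises and 4 falls among 12 in clip kidneys, with a summed level of 6.19 to 6.44 in clip, 6.44 to 6.57 in release and 6.32 to 6.42 in control kidneys on the log2 scale. Kdr, the VEGF receptor of endothelium, fell 2.38-fold (-1.25 ± 0.16, adjusted p = 0.00032). Proximal tubule markers fell in 10 of 11, with summed levels of 8.0 to 8.37 in clip, 9.46 to 9.87 in release and 9.62 to 9.97 in control kidneys, and Slc34a1 fell 5.03-fold. Thick limb and distal markers fell in 7 of 7 (7.27 to 7.56 in clip, 8.88 to 8.99 in release and 8.73 to 8.92 in control kidneys), Umod by 1.72-fold (adjusted p = 0.00071, but 0.066 with quantile normalization).

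Mesangial and pericyte markers had 2 rises and 1 fall among 7, with Pdgfrb 2.47-fold higher in clip kidneys, and their summed level was 4.54 to 4.79 in clip, 4.42 to 4.70 in release and 4.02 to 4.11 in control kidneys. Of 8 macrophage markers, Itgam and Ccr2 would not have passed the filter without the clip arrays, and 5 of the other 6 rose in clip kidneys. Their summed level, with Itgam and Ccr2 in it, was 4.64 to 4.81 in clip, 3.36 to 3.63 in release and 2.70 to 3.06 in control kidneys, and Adgre1 rose 2.83-fold. Of the 2 tested parietal epithelial markers, Cldn1 rose 5.37-fold and Pax8 was not called. In release kidneys, 3 macrophage markers and Pdgfrb (0.87, adjusted p = 0.040) were called higher than in control, with 1.83% of all genes called there. Ccr2 is among the 3, and its probe was well above background on 2 release arrays and on no control array.

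The 5 genes whose pattern over the 9 kidneys was nearest that of Nphs1, after each gene was centred on its own mean, were Ccnc, Slc25a45, AK083355, Slc2a9 and Cox11. Their root mean square distance from Nphs1 was 0.078 to 0.105 log2 units. The nearest member was Clic5 at 0.24, rank 1215 of 17741 genes, then Podxl at 0.29 (rank 2496) and Ptpro at 0.37 (rank 5436). Cd2ap at 0.76 and Plce1 at 0.96 were the farthest, at ranks 14726 and 16030. Of the other podocyte genes named here, Rhpn1 was nearer than any member (0.19, rank 356), and Col4a4, Crb2 and Arhgap24 were at ranks 1326, 1403 and 1465.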

How the data were processed

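Whole-kidney RNA of 9 mice was measured on single-colour arrays, 500 ng of RNA per kidney per the labels. Per the file headers the array design is 014868, read with Feature Extraction 10.7.3.1. The deposited scanner files hold each spot's processed intensity, background-subtracted per the file headers and not scaled between arrays, with other columns deposited as flags of 0 or 1. Each array held 45018 spots, of which 1639 were controls. Its 75th percentile was 320 to 439, and 52.0% to 57.5% of probes were well above background.

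Intensities were divided by the 75th percentile and taken to log2. Spots of a probe were averaged without outlier spots, and no member spot was saturated. Probes well above background on 3 or more arrays were kept, and the brightest stood for its gene. limma 3.58.1 in R 4.3.3 fitted 3 arms over 9 arrays, with Benjamini-Hochberg adjustment over 17742 genes at 0.05. The fit was also run on simulated data with independent noise. Those data held no slide effect, so they do not check the fit on that point. The labels do not describe separate litters or cages, and each mouse had 1 array. The p-values of the main fit therefore measure the spread between these 9 arrays, in which differences between mice and between slides are mixed. Each of the 3 slides held 1 array per arm.

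The members, lists and tests were chosen with earlier results of these data known. The rule for named genes takes the 9 members, the 2 largest rises and falls of each podocyte list in clip kidneys, all tested relatives, 6 cell type markers and the 5 genes nearest Nphs1. Some genes of the podocyte lists are counted but not reported here by name. The deposited table of log2 values, made by the authors, was not used: of 8142 rows with values, 0 were within 0.02 of the scanner values of the named probe and 8110 were that close to another probe. Deviations of arrays with the same replicate number correlated at 0.161 to 0.269 in 7 pairs and at -0.209 in the 2 pairs of the untreated kidney, so the numbers do not pair all samples. The slide does: the untreated kidney correlated at 0.279 and 0.282 with the arrays of its own slide, so slide was also run as a block. Alternatives were normexp background correction (offset 50, on the median spot signal), quantile normalization, and other filters and probe rules. Further ones were sham kidneys alone, slide or replicate number as a block, 2 arms in the fit, and each array left out in turn. Slides 1 and 2 alone, which was not planned, is also among the 19. Sham kidneys alone and leaving out the untreated kidney are the same fit, and both are counted in the 19.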

Additional observations from a re-analysis of the deposited data

How the results depend on the processing

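In clip against control kidneys, the calls of Nphs1, Cd2ap and Clic5 held in all 19 alternatives. Their log2 changes were -0.99 to -0.54, 0.67 to 1.17 and -1.26 to -0.95. In release against clip kidneys, those of Cdkn1c, Cd2ap and Clic5 held in all 19. Their log2 changes were 0.90 to 1.14, -1.12 to -0.67 and 0.76 to 1.06. No member was called in release against control kidneys in any of the 19. Over all comparisons of members and alternatives, 445 kept direction and side of the threshold, 34 lost a call, 5 gained one and 26 changed sign, each of these 26 uncalled. The cause of these changes was not tested. The median change of all genes in clip kidneys was -0.09, but 0.10 with normexp and -0.24 without the filter on dim probes.

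With normexp, 5622 genes changed in clip against control kidneys in place of 8676, 1 in release against control in place of 325 (1343 at an unadjusted p under 0.05) and 4136 in release against clip in place of 7270. Members called were 3 in place of 6 in clip against control, and 3 in place of 5 in release against clip, where the 6 and the 5 include Plce1. The other counts of release against control were 115 with quantile normalization, 12 without the filter, 1163 with slide as a block, 202 with the replicate block, 2 on slides 1 and 2 and 0 with only the arms compared (limma, 3384 at an unadjusted p under 0.05). Leaving out single arrays gave 2 to 343, the lowest without release 2. Without the filter, 13597 genes changed in release against clip kidneys. Leaving out single arrays gave 3 to 6 members called there, 3 without any of clip 1, 2 or 3.

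With the replicate number as a block, no member's call changed in clip or release against control; the Nphs1 change was -0.86 and -0.41. Of the other named genes, Crb2 lost its call (adjusted p = 0.091). The numbers did not pair the untreated kidney with its slide. With slide as a block, no member's call against control changed either.

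Some calls of other named genes in clip against control kidneys were lost when 1 array was left out. The adjusted p of Crb2 was 0.0581 to 0.086 without sham 2 or any 1 of the clip kidneys, that of Foxc2 0.074 to 0.088 without sham 2, clip 1 or clip 3, and that of Nes 0.050 to 0.054 without sham 1, sham 2, clip 1 or clip 2. That of Cdkn1b was 0.052 to 0.115 without sham 1, sham 2, the untreated kidney, clip 1, clip 3 or release 1.

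Changes of sign in clip against control kidneys were as follows. Normexp gave 0.0050 for Wt1, -0.013 for Synpo and 0.036 for Clic6, and quantile normalization 0.23 for Clic4. Sham kidneys alone, which is the same as leaving out the untreated kidney, gave 0.0017 for Wt1, 0.029 for Ptpro and 0.71 for Clic6. Slides 1 and 2 gave 0.055 for Ptpro and 0.44 for Clic6. Leaving out single arrays gave -0.49 to 0.0017 for Wt1, -0.28 to 0.029 for Ptpro, -0.11 to 0.030 for Clic4 and -1.05 to 0.71 for Clic6.

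In release against control kidneys, normexp gave -0.072 for Synpo and 0.00052 for Cd2ap. Quantile normalization gave 0.054 and the mean of probes 0.16 for Cd2ap. Sham kidneys alone gave 0.050 for Podxl, 0.23 for Wt1 and 0.0069 for Cd2ap, and slides 1 and 2 gave 0.12 for Wt1. Leaving out single arrays gave -0.21 to 0.050 for Podxl, -0.26 to 0.23 for Wt1, -0.075 to 0.15 for Synpo, -0.10 to 0.0069 for Cd2ap and -0.22 to 0.024 for Col4a3.

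In release against clip kidneys, normexp gave -0.042 for Wt1, the mean of probes 0.0022 for Synpo, and leaving out single arrays -0.078 to 0.0055 for Ptpro. Plce1, Anln and Pdpn could not be tested where every array had to be above background. Plce1 and other dim probes limit what these arrays can show.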
